A study of Mus musculus with 2 samples.

Results

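The 7 noncoding RNAs described here are the 7SL copies Rn7s1 and Rn7s2, the 7SK RNA Rn7sk, the RNase MRP and RNase P RNAs Rmrp and Rpph1, the telomerase RNA Terc, and Gm42418, a row that overlaps an 18S ribosomal RNA sequence. They were taken by symbol, matched on the unversioned mouse gene identifier, and all 7 were found among 43346 mouse gene rows. They had been selected on their TPM, estimated counts and posterior SDs in these same libraries, so those values are given as a description, with no test. The libraries, 2 in all and of 1 group, hold total RNA from fetal mouse liver of embryonic day 14.5, strain B6NCrl, with no treatment or mutation in the labels, so there is no second group to set against them. Input was 10 ng of RNA longer than 200 nucleotides, to which ERCC spike-ins, synthetic RNAs of known amount, were added. The labels call each sample a single liver and also pooled male and female tissue, and the collection dates differ. The libraries go against the pooled label. Xist, the RNA of the inactive X chromosome, had 8.9 reads in replicate 1 and 7065 in replicate 2, while the Y-linked genes Ddx3y, Eif2s3y, Kdm5d and Uty had 577 to 1954 reads in replicate 1 and at most 1 in replicate 2. In these genes replicate 1 thus looks male and replicate 2 female, and sex, animal, date and library cannot be told apart in any difference or SD between them. No label states a selection for poly(A) tails or a depletion of ribosomal RNA, so levels of RNAs without a tail need not be those in the tissue.

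Replicate 1 held 37059776 and replicate 2 held 26908926 estimated reads on mouse rows, and spike-ins took 7.35% and 6.72% of all reads. Over 14851 genes the libraries differed by a chi-square of 11.1 per degree of freedom, so they are not copies of 1 library. The hepatocyte genes Alb, Afp, Ttr and Apoa1 each reached 629 TPM or above in both libraries. TPM is a row's share of all transcripts after division of its reads by its effective length. In a bulk sample, fewer cells of a type and less RNA per cell cannot be told apart.

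7SL RNA is the scaffold of the signal recognition particle, which brings ribosomes making secreted and membrane proteins to the endoplasmic reticulum. The liver is a secretory organ, and whether that bears on the 7SL level here was not tested. 7SK RNA holds the transcription elongation kinase P-TEFb in an inactive particle. The RNase P RNA is the catalytic part of the enzyme that trims the leader of precursor tRNAs, and the RNase MRP RNA belongs to a related enzyme that cuts precursor ribosomal RNA. Telomerase RNA carries the template for telomere repeats. The 7SL, 7SK, RNase P and RNase MRP RNAs are made by RNA polymerase III and end without a poly(A) tail, telomerase RNA is made by RNA polymerase II, and 18S ribosomal RNA is made by RNA polymerase I.

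The sequences below show which stretches of these RNAs can be told from other rows. They were read from the GENCODE M21 transcripts on GRCm38 (mm10), with the same transcript version and length as in the deposited tables, and are written 5′ to 3′ as DNA. In Rn7sk and Rmrp, capitals mark bases inside a window of 100 bases that another transcript of the tables also holds.
Rn7sk, chr9:78175334-78175633, minus strand, bases 1 to 300 of 331: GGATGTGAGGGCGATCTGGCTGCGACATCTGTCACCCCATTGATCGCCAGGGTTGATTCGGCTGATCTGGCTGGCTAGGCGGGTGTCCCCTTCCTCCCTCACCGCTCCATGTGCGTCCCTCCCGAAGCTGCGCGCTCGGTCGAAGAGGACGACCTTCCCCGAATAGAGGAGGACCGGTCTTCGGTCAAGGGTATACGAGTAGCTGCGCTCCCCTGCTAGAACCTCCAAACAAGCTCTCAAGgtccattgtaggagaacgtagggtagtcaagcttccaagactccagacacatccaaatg
Rmrp, chr4:43492788-43493058, minus strand, whole: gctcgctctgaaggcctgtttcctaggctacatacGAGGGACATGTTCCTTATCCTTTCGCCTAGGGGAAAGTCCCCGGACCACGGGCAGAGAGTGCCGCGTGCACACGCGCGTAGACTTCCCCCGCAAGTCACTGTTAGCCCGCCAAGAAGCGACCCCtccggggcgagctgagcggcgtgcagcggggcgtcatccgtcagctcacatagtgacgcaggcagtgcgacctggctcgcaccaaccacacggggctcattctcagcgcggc
Terc, chr3:96414740-96414859, minus strand, bases 1 to 120 of 423, with 8 letters of the telomere template in capitals: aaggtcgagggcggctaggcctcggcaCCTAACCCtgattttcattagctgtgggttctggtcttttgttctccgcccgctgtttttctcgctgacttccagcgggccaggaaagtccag
Gm42418, chr17:39848143-39848262, plus strand, bases 1186 to 1305 of 1831, with the part inside the RefSeq 18S annotation in capitals: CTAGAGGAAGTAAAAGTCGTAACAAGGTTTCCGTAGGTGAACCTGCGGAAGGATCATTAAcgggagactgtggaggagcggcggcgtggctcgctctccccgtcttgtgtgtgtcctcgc

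The 7SL rows cannot be told apart by sequence. Rn7s1 (ENSMUSG00000099021.1, chromosome 12, 69159295 to 69159594) and Rn7s2 (ENSMUSG00000099250.1, chromosome 12, 69361182 to 69361481, opposite strand) are the same at 300 of 300 bases. All 201 windows of 100 bases in either row also lie in the other. The copy Rn7s6 shared 74 of these windows and Gm26461 shared 5, all within the first 214 bases. Rn7sk (ENSMUSG00000065037.1, chromosome 9, 78175303 to 78175633) shared 142 of its 232 windows with other rows on the same strand, all within its first 241 bases. Rmrp (ENSMUSG00000088088.1, chromosome 4, 43492788 to 43493058) shared 25 of 172 windows, on the opposite strand, with a transcript of Ccdc107, a gene that overlaps it. Rpph1 (ENSMUSG00000092837.1, chromosome 14, 50807449 to 50807767), Terc (ENSMUSG00000064796.1, chromosome 3, 96414437 to 96414859) and Gm42418 (ENSMUSG00000098178.1, chromosome 17, 39846958 to 39848788) shared none with another transcript of the tables. All 7 RNAs were rich in G and C, from 58.0% in Rn7sk to 67.1% in Rpph1 and in Terc, against a median of 49.7% over 91424 transcripts.

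Gm42418 had the highest level of the 7 rows and Terc the lowest, and the order was the same in both livers apart from the 7SL pair. Gm42418 stood at 8318 TPM (replicate 1) and 8455 TPM (replicate 2), and ranked at place 5 of all mouse rows in each. Rn7s1 was at 5647 and 5305 TPM and Rn7s2 at 5647 and 5303 TPM. Rn7sk was at 182 and 173 TPM. The livers were close for each of these RNAs, and the 7SL rows lay about 30.8-fold above Rn7sk by their means. Rpph1 had 70.7 and 73.2 TPM, and Rmrp 37.0 and 42.0 TPM. Terc was at 1.03 and 0.64 TPM, 47.3-fold below Rmrp by the means. The values of neighbours in this order did not overlap between libraries, except for Rn7s1 and Rn7s2.

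**Figure D1:**
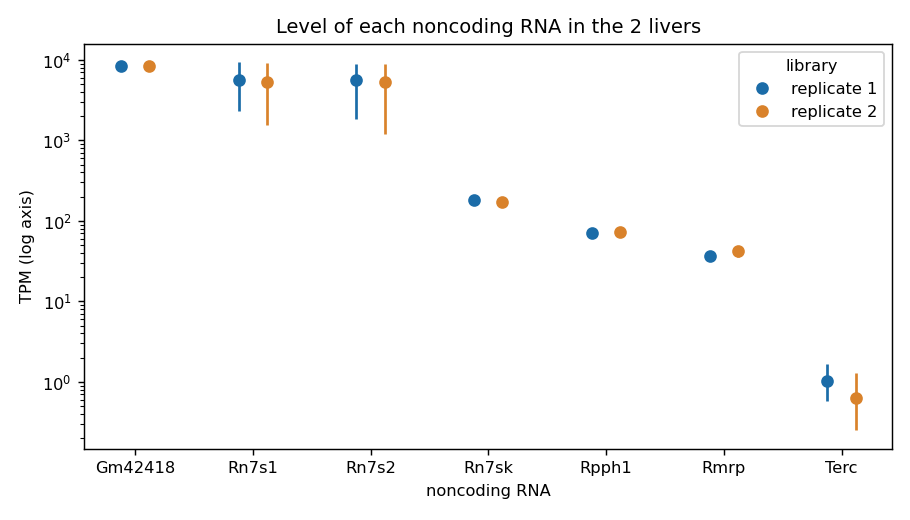
TPM (log axis) of the 7 noncoding RNAs in each library; points are deposited TPM and vertical lines the deposited credible interval, whose level is not stated. The intervals of the 7SL rows run from 1188 to 9296 TPM over both libraries, whereas those of Rn7sk, Rpph1 and Rmrp are narrow.

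As means, these levels were 8386 ± 97 TPM for Gm42418, 5476 ± 242 TPM for Rn7s1, 5475 ± 244 TPM for Rn7s2, 178 ± 6 TPM for Rn7sk, 71.9 ± 1.8 TPM for Rpph1, 39.5 ± 3.6 TPM for Rmrp and 0.84 ± 0.28 TPM for Terc (SD, n = 2 each). The spread between livers was 1.16% of the mean for Gm42418 and 33.0% for Terc. Together the 7 rows took 1.89% of reads on mouse rows in replicate 1 and 1.82% in replicate 2, and 2.22% and 2.14% of mouse TPM. They held 42.0% and 39.8% of reads on rows that are neither protein-coding nor mitochondrial. Most of these reads lay on Gm42418 alone, 602479 of 700112 in replicate 1 and 425544 of 489354 in replicate 2.

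7SL was far more certain as a sum than as single copies. Rn7s1 and Rn7s2 each had 47469 expected reads in replicate 1, and 30988 and 30971 in replicate 2. The deposited posterior SD, the uncertainty of the count from dividing shared reads, was 17810 reads for Rn7s1 and 17809 reads for Rn7s2 in replicate 1. In replicate 2 it was 13221 reads for each. These are 37.5% of the Rn7s1 count in replicate 1 and 42.7% in replicate 2. The posterior means put 55.8% and 54.7% of the pair's reads on Rn7s1, while the expected counts put an equal share on it in replicate 1 and 50.01% in replicate 2. The sum of both rows was 94938 expected reads in replicate 1 and 61959 in replicate 2, and the sum of the posterior means differed from it by 0.46 and 1.91 reads. The levels of the single rows thus rest on how the deposited estimate divided the reads, and the sum does not.

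**Figure D2:**
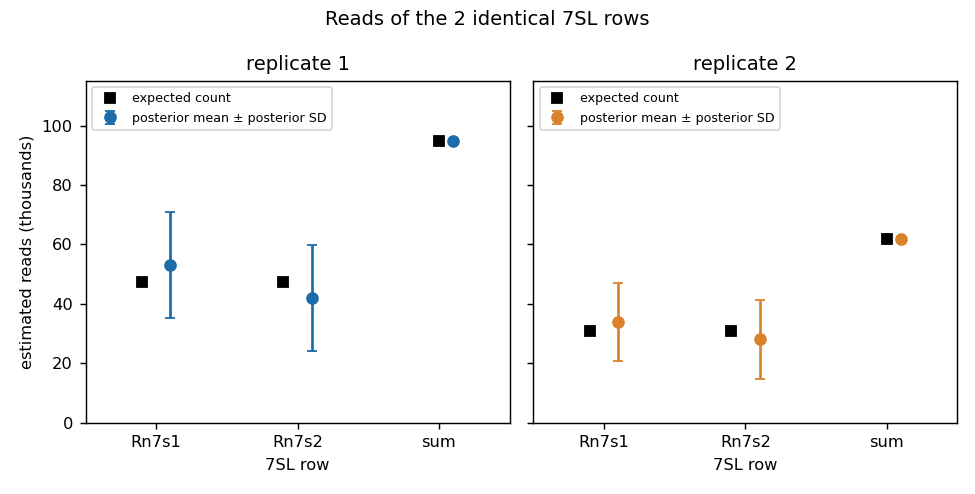
Estimated reads (axis in kiloreads) of Rn7s1, Rn7s2 and their sum in each library; squares are expected counts and circles posterior means, with bars of 1 posterior SD on the single rows. The bars of both rows overlap, and the sum is the same by either estimate, at 94938 reads in replicate 1 and 61959 in replicate 2.

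As a pair, 7SL took 0.256% of reads on mouse rows in replicate 1 (95% exact binomial interval 0.255% to 0.258%) and 0.230% in replicate 2 (0.228% to 0.232%). Intervals here cover counting error alone. By TPM the pair stood at 11294 in replicate 1 and 10608 in replicate 2, or 1.26% and 1.18% of mouse TPM, 62.1-fold and 61.3-fold above Rn7sk. It was 1.36-fold and 1.25-fold above Gm42418. That order depended on the length used. TPM divides by effective length, which was 99 nucleotides below the length in 101408 of 101408 transcript rows of 100 nucleotides or more, and so was 201 for a 7SL row of 300. Per annotated length, on the scale of TPM over mouse rows, the pair was at 9794 and 9115 and Gm42418 above it at 10183 and 10257.

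The deposited posterior SD, which covers only sharing between rows of the tables, was small for the other members. Rn7sk had 1765 reads in replicate 1 and 1167 in replicate 2, with a posterior SD of 0.22% and 0.31% of the count. Rmrp had 266 and 210 reads with 0.14% and 0.17%, and Ccdc107, on the other strand, had 897 and 556 reads. The labels do not say if strand was used in counting. Rmrp shared windows only on the opposite strand, and its posterior SD was still above 0, at 0.37 and 0.36 reads. With which row these reads were divided was not tested, so reads of these overlapping genes cannot be told apart with certainty. Rpph1 had 650 and 468 reads and a posterior SD of 0, and Ccnb1ip1, whose gene overlaps it by 284 bases on the same strand, had no read. The Ccnb1ip1 transcript that holds 134 of the 220 windows of Rpph1 was not among the deposited rows. The posterior SD of 0 does not cover sharing with that transcript. Terc had 14 and 6 reads and a posterior SD of 0, so counting error sets the precision of its level. Of the 6 members with a mean of 50 reads or more, 2 had a posterior SD of 10% or more of the count, against 2.17% of 12189 genes. The rule used these spreads, and nothing is read from that count.

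Sequence relatives of 7SL and 7SK took almost none of the reads. Among small noncoding rows, 8 others were at least 75% identical to Rn7s1 over the whole length and 15 others to Rn7sk. Of the 8 relatives of 7SL, 5 had no read in either library. Rn7s6 had 102 and 53.6 reads (12.8 and 9.60 TPM), Gm26461 had 32.5 and 19.3 reads (4.07 and 3.47 TPM) and Gm24514 had 8.04 and 6.01 reads (1.03 and 1.11 TPM). Of the 15 relatives of 7SK, 14 had no read, among them Gm24447 and Gm26315, which share 142 and 136 windows of 100 bases with Rn7sk. Gm26035 had 2.05 and 1.02 reads. The relatives together held 0.150% and 0.127% of reads of the 7SL family, and 0.116% and 0.0873% of those of the 7SK family.

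**Figure D3:**
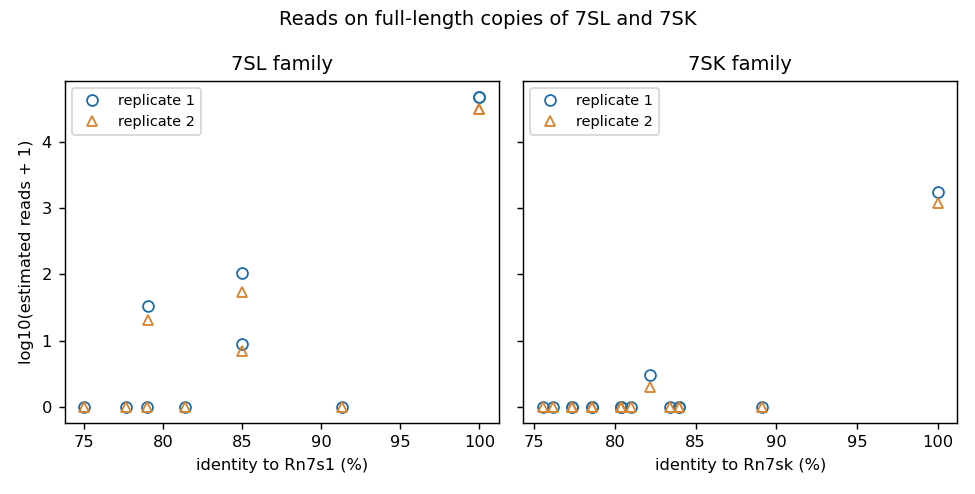
Estimated reads, as log10(reads + 1), against identity to Rn7s1 (left, 7SL family) or Rn7sk (right, 7SK family); each point is a row in 1 library. At 100% identity lie the members, and all other rows are at 102 reads or fewer.

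Gm42418 lies on an annotated stretch of 18S ribosomal sequence. The row overlaps the RefSeq 18S annotation Rn18s-rs5 (chromosome 17, 39846354 to 39848202) by 1245 bases, 68.0% of the row, and runs 586 bases past its end. It held 602479 reads in replicate 1 and 425544 in replicate 2, or 1.63% and 1.58% of reads on mouse rows. These were 70.2% and 65.4% of all reads on long intergenic RNA rows. Its posterior SD was 8.84 and 7.84 reads, far below 1% of the count. GENCODE M21 also places AY036118 and CT010467.1 on the opposite strand there, which were not among the deposited rows. AY036118 holds 824 of the 1732 windows of Gm42418, and a transcript of CT010467.1 holds 1145. The posterior SD does not cover sharing with them.

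Gm26917, another long intergenic RNA row, ends 616 bases before Gm42418 on the same strand. Its level was 1410 TPM (replicate 1) and 1828 TPM (replicate 2), and Gm42418 was 5.90-fold and 4.63-fold above it. The livers differed more in this row, with a log2 ratio of replicate 1 over replicate 2 of -0.37, than in Gm42418, at -0.02; with 1 value each the difference was not tested. The mitochondrial ribosomal RNAs mt-Rnr2 and mt-Rnr1 were at 3428 ± 48 and 972 ± 6 TPM (SD, n = 2). The other measured rows of the ribosomal list were Lars2, the gene of a mitochondrial tRNA synthetase, at 782 ± 15 TPM and Gm15564 at 0.67 ± 0.24 TPM.

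Most reads on small noncoding RNA rows lay on 7SL. Of 5741 rows annotated as small nuclear, nucleolar, Cajal body, ribosomal, ribozyme, micro- or miscellaneous RNA, the 6 members of these classes held 96.2% of reads in replicate 1 and 95.7% in replicate 2, and the 7SL pair alone 93.5% and 92.9%. None of 1927 rows shorter than 100 nucleotides had a read, and all transcripts of that length had an effective length of 0. Of rows of 100 to 199 nucleotides, 109 of 3376 had reads in both libraries. Of rows of 200 to 299 nucleotides it was 20 of 273, and of longer rows 12 of 165. The RNA used was above 200 nucleotides, so shorter RNAs are measured here only as far as they passed that selection.

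In the lists of other small RNAs, many rows had few reads or none. In a list of 18 small RNAs, 16 were measured, 13 of them shorter than 200 nucleotides; 8 were at 1 TPM or more in both livers and 6 had no read. The U3 row Rnu3b2, a guide for ribosomal RNA processing, was the highest at 22.6 and 22.4 TPM, with a posterior SD of 36.9% of its count, and the Y RNA Rny3 had no read. In a list of 8 nucleolar and Cajal body RNAs, 7 were measured, 3 reached 1 TPM in each liver, and Snora73b led at 6.21 and 3.77 TPM, with a posterior SD of 21.1% of its count. Scarna9, in a row of 70 nucleotides, had no read. Over the rows at 1 TPM or more in both livers, the list medians were 3.49 TPM (8 rows) and 2.76 TPM (3 rows), against 9.66 TPM over all 11375 genes that passed the same limit. Rows outside these lists were higher, such as the U8 row Snord118 at 43.8 and 44.9 TPM from 66 and 47 reads. Among 6 long noncoding RNAs made by RNA polymerase II, Malat1 led at 475 ± 12 TPM, from 9217 and 6602 reads. Its row length was 572 nucleotides in replicate 1. H19, at 383 ± 25 TPM, had more reads, 22245 and 17248, so the order depends on row length. Kcnq1ot1 had the lowest mean at 0.38 ± 0.02 TPM, with a list median of 51.8 TPM and 4 of 6 at 1 TPM or more in both. Xist, at 0.09 TPM in replicate 1, was lower than Kcnq1ot1 there, and stood at 14.0 TPM in replicate 2, a log2 ratio of -3.78.

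The genes of the proteins that bind these RNAs differed from their RNA by very different factors. All 9 measured genes of the signal recognition particle and its receptor were detected in both livers, detection being 1 TPM, and the list medians were 43.2 and 44.1 TPM. Srp19 was highest at 117 ± 3 TPM and the receptor subunit gene Srprb lowest at 14.8 ± 0.1 TPM. Srp9 and Srp14, whose products bind the Alu domain of 7SL, were at 71.5 ± 0.3 and 81.8 ± 4.2 TPM, and Srp54a, of the subunit that binds signal peptides, at 34.2 ± 1.4 TPM (SD, n = 2 each); its near-identical copies could share its reads. The 7SL pair was 262-fold above the list median in replicate 1 and 241-fold in replicate 2, and above 9 of 9 genes. Rn7s1 alone ranked at place 11 of all mouse rows in each library, so it lay above nearly all other genes too.

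All 7 genes of the 7SK particle and P-TEFb were detected, with medians of 16.7 and 16.0 TPM. The kinase gene Cdk9 was highest at 32.0 ± 3.3 TPM and the inhibitor gene Hexim1 lowest at 2.04 ± 0.13 TPM, beside its paralogue Hexim2 at 3.16 ± 0.59 TPM. Larp7, which binds the 3′ end of 7SK, was at 22.7 ± 0.7 TPM and the 7SK capping enzyme gene Mepce at 4.68 ± 0.63 TPM. Rn7sk was 10.9-fold and 10.8-fold above the list median, and above 7 of 7 genes. It ranked at places 494 and 537 of all mouse rows, of which 11669 and 11820 reached 1 TPM, so it lay above most detected genes too.

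RNase P and RNase MRP share most of their proteins. Of 11 protein genes, 10 were detected in both, with medians of 16.9 and 15.7 TPM. Pop5 was highest at 82.2 ± 6.3 TPM, and Rpp25 lowest at 0.39 ± 0.08 TPM beside its paralogue Rpp25l at 28.5 ± 4.1 TPM. Rpph1 was 4.17-fold and 4.67-fold above the median and above 10 of 11 genes. Rmrp was 2.18-fold and 2.68-fold above it and above 9 of 11. Among all mouse rows, Rpph1 ranked at places 1222 and 1244 and Rmrp at 2127 and 2016, with 11669 and 11820 rows at 1 TPM or more. Both thus lay above most detected genes, and nothing particular to the partner genes is read from these counts. Rpph1 was 1.91-fold above Rmrp in replicate 1 and 1.74-fold in replicate 2.

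For telomerase, 7 of 8 protein genes were detected in both, with medians of 15.3 TPM in each liver. Nop10 and Nhp2, which also serve other box H/ACA RNAs, were at 135.2 ± 0.4 and 114 ± 5 TPM and the pseudouridine synthase gene Dkc1 at 57.9 ± 8.4 TPM. Tert, the catalytic subunit, was at 0.42 and 0.41 TPM, the only gene of the list below Terc in either liver. Terc stood at 0.067 and 0.042 of the list median. The Terc row starts 26 bases before the 5′ end of the RefSeq RNA of 397 bases.

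The listed part of the machinery that makes the polymerase III RNAs was detected throughout. The list held 25 genes of polymerase III subunits, some of its initiation factors, the La protein and the repressor Maf1. All 25 reached 1 TPM in each liver, with medians of 7.29 and 8.84 TPM. Genes of the initiation factor TFIIIC were not in the list. Ssb, the gene of the La protein that binds the 3′ ends of new polymerase III transcripts, was highest at 131 ± 6 TPM and Polr3gl lowest at 2.56 ± 0.21 TPM, below its paralogue Polr3g at 9.19 ± 0.49 TPM. Maf1 was at 57.4 ± 4.6 TPM and the largest subunit gene Polr3a at 3.29 ± 0.20 TPM (SD, n = 2 each).

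**Figure D4:**
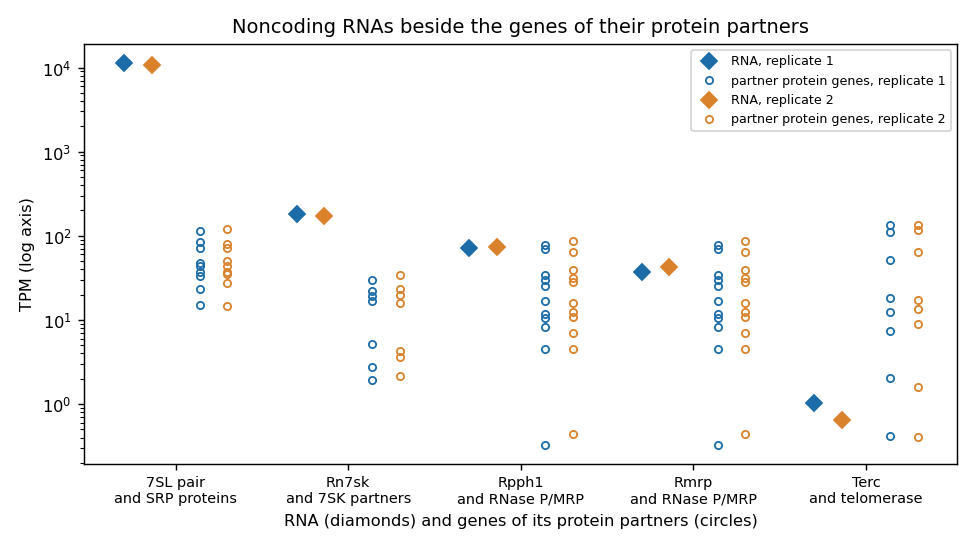
TPM (log axis) of each RNA (diamonds) and of each gene of its protein partners (open circles) in both libraries; RNase P and RNase MRP are drawn beside the same proteins. The 7SL pair, at 11294 and 10608 TPM, lies above all its partner genes, and Terc, at 1.03 and 0.64 TPM, above Tert alone.

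The livers differed little in 6 of these RNAs, and Terc had too few reads to tell. On the log2(TPM + 1) scale, the ratio of replicate 1 to replicate 2 was 0.09 for Rn7s1 and for Rn7s2, 0.07 for Rn7sk, -0.02 for Gm42418, -0.05 for Rpph1 and -0.18 for Rmrp. Over the 5564 genes averaging at least 10 TPM the median ratio was -0.09 and the median size 0.11. None of the 6 members that passed this filter reached a 1.5-fold ratio, against 0.755% of those genes. Terc, below the filter, had a ratio of 0.31. By share of mouse reads, Terc was 1.69-fold higher in replicate 1, with a 95% exact interval of 0.61 to 5.38, so a difference was not detectable at this depth. By the same measure the 7SL pair was 1.11-fold higher in replicate 1 (1.101 to 1.124), a difference larger than counting error but from 1 library each. Rn7sk stood at 1.098 (1.02 to 1.18) and Gm42418 at 1.03 (1.02 to 1.03), also beyond counting error. Rmrp stood at 0.92 (0.76 to 1.11) and Rpph1 at 1.01 (0.89 to 1.14). The sign of the ratio of Rn7sk, Rpph1 and Gm42418 turned with the scaling. For 7SL the log2 ratio ran from 0.0004 (Rn7s1) and 0.001 (Rn7s2) over spike-ins to 0.15 for each by share of reads. The size of the 7SL difference thus depended on the scaling. The scaling moved the median log2 ratio of all genes between -0.18 over spike-ins and -0.04 by share of reads. Relative to that median, over 7 scalings and pseudocounts, Rn7s1 lay 0.17 to 0.19 above, Rn7sk 0.15 to 0.17, Gm42418 0.06 to 0.08, Rpph1 0.03 to 0.05 and Terc 0.18 to 0.71. Rmrp lay between -0.09 and -0.07.

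**Figure D5:**
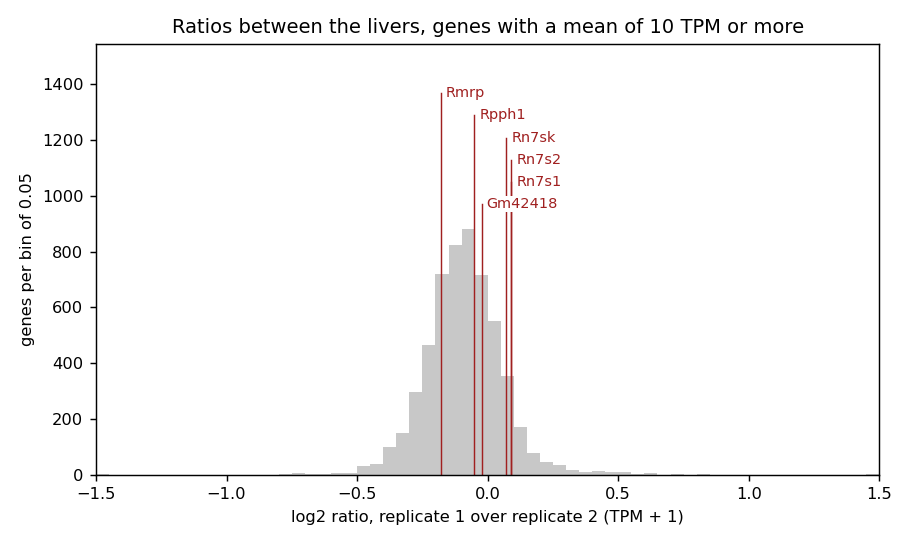
Number of genes per bin of 0.05 by log2 ratio of replicate 1 over replicate 2, for the 5564 genes averaging at least 10 TPM; ratios beyond the axis are counted in its end bins. Red lines mark the 6 members that passed, from -0.18 for Rmrp to 0.09 for the 7SL rows.

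The genes with the most similar pair of levels, by distance between log2(TPM + 1) values over only 2 libraries, were Hist1h2ap for the 7SL rows, mt-Atp6 for Gm42418, and Gm8203 and Mrpl17 for Rn7sk. For Rpph1 they were Fbxo5 and Snrpf, for Rmrp Wdr74 and Rhno1, and for Terc Mmp9 and Col27a1. The distance was at most 0.03 for the genes named beside Rn7sk, Rpph1, Rmrp and Terc, and 0.31 for mt-Atp6. Hist1h2ap, a histone gene, had 5704 and 5639 TPM. The second of the nearest rows to Gm42418 was Gm28437, at a distance of 0.36.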

How the data were processed

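For each library the authors deposited a gene table and a transcript table; the README deposited with them names mm10 and GENCODE M4, with aligner and counting program not given in the sources used here. Per the file headers the deposited values are expected counts (estimated reads, not normalized), TPM, FPKM and, per transcript, the percent of its gene. A posterior mean and SD of each count and bounds of a TPM credible interval were deposited too; per the file headers these deposited scores come from the authors' count model, in reads or TPM.

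Gene rows were joined to GENCODE M21 symbols by unversioned identifier (42462 of 43346 matched), as in the earlier work on these files. For the 7 members, gene and transcript tables held equal values in 14 of 14 cases. The members and all lists were chosen with earlier results of these data known. Named besides members are the highest and lowest gene of each of 9 lists (partner proteins, polymerase III machinery, other noncoding RNAs), further genes of these lists picked for their role, relatives of 7SL or 7SK at 1 TPM or more, and the 2 genes nearest to each member. Ccdc107 and Ccnb1ip1 were named for their overlap, and Gm24447, Gm26315, Gm26035, Gm22133, Gm24616, Snord118, H19, Xist and the Y-linked genes after their values were seen. Relatives were defined by identity after the data were seen. Lists matched by symbol; unmatched ones are left out of counts.

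Ratios used TPM with a pseudocount of 1, for genes averaging at least 10 TPM with 50 summed reads. Detection was 1 TPM. Shared windows were exact 100-base matches on either strand; identity used the edit distance of whole transcripts. Some items are not reported here. With 1 group of 2 libraries there was no test, and nothing says how far their spread is technical. The ratio procedure was tested on simulated counts drawn from 1 pooled profile with counting error alone. The real libraries differed by more, at a chi-square of 11.1 per degree of freedom. The simulation thus cannot show how often unchanged genes pass the ratio limit here. Alternatives were FPKM, posterior means, annotated length, TPM without globin genes, TPM over spike-ins, share of reads, other pseudocounts and filters, and each library alone. Python 3.11.15, numpy 2.4.6, pandas 2.3.3, scipy 1.17.1, matplotlib 3.10.9 and edlib 1.3.9.post1 were used.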

Additional observations from a re-analysis of the deposited data

How the results depend on the processing

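Of 42 values for the levels of the 7 RNAs under alternatives, 24 lay within 1 SD of the mean of both libraries. Among the 24 are the values of each library alone, which lie within 1 SD of a mean of 2 by construction. The count of 24 is thus no measure of stability. Rescaling without globin genes and dividing by another length change every level by construction; for the other alternatives the cause was not tested. Without globin genes, which took 39.9% and 38.1% of mouse TPM, levels were 13752 for Gm42418, 8985 for Rn7s1, 8983 for Rn7s2, 291 for Rn7sk, 118 for Rpph1, 64.7 for Rmrp and 1.37 for Terc. Per annotated kilobase, on the TPM scale, they were 10220 for Gm42418, 4728 for Rn7s1, 4726 for Rn7s2, 160.3 for Rn7sk, 63.9 for Rpph1 and 32.3 for Rmrp. Posterior mean TPM gave 8250 for Gm42418, 5952 for Rn7s1 and 4821 for Rn7s2, and FPKM 8607 for Gm42418 and 73.8 for Rpph1. The Terc ratio was 0.61 with a pseudocount of 0.1 and 0.10 with 5. Of 42 ratios under alternatives, 40 moved from the member's own main ratio by less than 0.184, the SD of all genes' ratios. That tolerance was larger than the main ratio of every member but Terc, so the count of 40 is no measure of stability either. Counting 1 row in place of the pair gave 0.122% of reads for Rn7s1 and 0.122% for Rn7s2, and 0.609% of TPM for each, while adding all relatives gave 0.244% of reads. The relative spread with the posterior mean as denominator was 36.3% for Rn7s1 and 44.8% for Rn7s2. Genes with a spread of 10% or more numbered 265, and 756 from 10 reads, 27 from 500 reads, 456 at a threshold of 5% and 110 at 20%. Genes with a 1.5-fold ratio numbered 42, and 209 from 1 TPM and 518 with no filter. In FPKM the median of the signal recognition particle genes was 44.8 and that of the telomerase genes 15.7. No paired analysis was possible because there was 1 group. Depth limits Terc most among the 7, with 14 and 6 reads. Counting error also left wide intervals for the ratio between livers of Rmrp (0.76 to 1.11) and Rpph1 (0.89 to 1.14).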

Other observations

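For Gm42418 the deposited TPM lay above the deposited credible interval in both libraries: 8318 TPM against an upper bound of 8227 TPM in replicate 1, and 8455 TPM against 8319 TPM in replicate 2. It was the only member of the 7 outside its interval. Of genes with 50 reads or more, 0.775% in replicate 1 and 1.41% in replicate 2 lay above theirs.

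Among small noncoding rows the highest after the 7SL pair by TPM was Gm22133, annotated as a microRNA of 109 nucleotides, with 3848 and 4480 TPM. These came from 1609 and 1302 reads over an effective length of 10 nucleotides. Rn7sk had 1765 and 1167 reads over an effective length of 232 and stood at 182 and 173 TPM. The small nucleolar row Gm24616 was at 135 and 127 TPM from 226 and 148 reads.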
